A study of Arabidopsis thaliana with 2 samples.

Results

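The genes described here encode proteins that the annotation of the deposited table places in the cell wall or outside the cell. They were chosen by 3 kinds of criteria. The cellular component terms had to include the cell wall or the extracellular region. The process and function terms had to lack carbohydrate metabolism, lipid metabolism, the response to abscisic acid, oxidoreductase activity and transporter activity. The gene also had to have at least 1 read in the *cep1* library, and *CEP1* and *SAG12* were left out. Of the 733 genes in the table, 47 carried a cell wall or extracellular region term, 20 of these were removed by the other terms, 27 were left, 5 of the 27 had 0 reads in *cep1*, and 20 genes remained after *CEP1* and *SAG12* were taken out. An extracellular region term was carried by 18 of the 20, a cell wall term by 6, both by 4, and the term for the apoplast, the wall space through which water moves, by 5.

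RNA was sequenced from mature stems of *Arabidopsis thaliana*, with 1 library for the *cep1* mutant and 1 library for the wild type (WT), and no replicates. The *cep1* plants carry a T-DNA insertion in *CEP1*, which encodes a papain-like cysteine protease, and the WT was Columbia-0. The labels give both genotypes as untreated, sampled 25 days after flowering and grown in a greenhouse at 20 °C with long days. The study's text gives another temperature than the labels. It describes the collection by growth stage, which the mutant reached more days after bolting than the WT. The paper also reports later flowering in the mutant. Under a collection by stage or by days after flowering, plant age and genotype thus cannot be told apart. The comparison asked which transcripts differ in stems of the mutant, in a study of programmed cell death and wall thickening in the xylem.

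The table holds only genes that its authors had called lower in *cep1*, by a limit on the corrected p-value and a fold threshold. Every gene in it was thus chosen for a log2 ratio of *cep1* to WT of -1 or below. That direction was therefore part of the choice of the 20 genes and is given as a description, without a test. With 1 library per genotype no difference has a replicate check. Levels are given as raw reads and as FPKM, the deposited level per unit of gene length and sequencing depth, and ratios were taken after each library's reads had been scaled by the factor of the authors' normalized read counts. Intervals are exact (Clopper-Pearson) or Wilson 95% intervals and cover counting error only.

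*CEP1* itself had 15 reads in *cep1*, against 1269 in the WT. The library totals implied by the deposited values were 22077141 reads in *cep1*, against 20962056 in the WT. Among markers of other cell types, 14 of 17 seed genes were listed, with 139 reads in *cep1*, against 88913 in the WT, and 12 of them had 0 reads in *cep1*. Of the seed coat genes 4 of 8 were listed, with 99 reads in *cep1*, against 2856 in the WT. Of the genes of the fruit valve and its margin 1 of 5 was listed, *ALC*, with 129 reads in *cep1* and 976 reads in the WT. No xylem gene of 9, phloem gene of 4 or tapetum and pollen gene of 4 was listed, so the labelled stem tissue could not be checked on those. A list of genes called lower cannot hold genes that rose. The paper reports *IRX1*, *IRX3* and *IRX5*, which are among the xylem genes searched, as higher in *cep1*. The part of seed RNA in the values below was not tested. In these bulk samples, fewer cells of a type and less RNA per cell cannot be told apart.

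Plant cells export proteins through the secretory pathway, which they enter by a hydrophobic signal peptide at their N-terminus. In the wall and the apoplast they meet proteases and their inhibitors, ribonucleases, germin-like proteins, antimicrobial peptides, and peptide hormones that are cut from larger precursors and read by receptor kinases at the plasma membrane. Several of these families also act in the vacuole, in stress responses and in dying cells.

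All 20 genes lay at -1 or below, as did 100% of the 672 listed genes with reads in *cep1*, because the table was built that way. A log2 ratio of -2 or below was reached by 6 of the 20 genes, which is 30%, against 42.0% of the 672 listed genes. The median log2 ratio was -1.36 over the 20 genes and -1.75 over the 672. The genes at or below -2 were *SCPL17*, *RNS1*, *AT5G39130*, *GASA10*, *CYS5* and *PDF2.1*, and the other 14 lay between -1.83 and -1.07. The counting interval lay wholly below -1 for 18 of the 20 genes and for 89.3% of the 672, the exceptions among the 20 being *AT1G02300* and *RNS2*. Summed over the 20 genes, 22500 reads were counted in *cep1*, which is 0.102% of the library (0.101 to 0.103), and 66247 in the WT, which is 0.316% (0.314 to 0.318). A single gene, *NIT1*, made up 57.2% of the summed reads in *cep1* and 53.5% in the WT. Without it the genes took 0.0437% of the *cep1* library and 0.147% of the WT library.

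**Figure D1:**
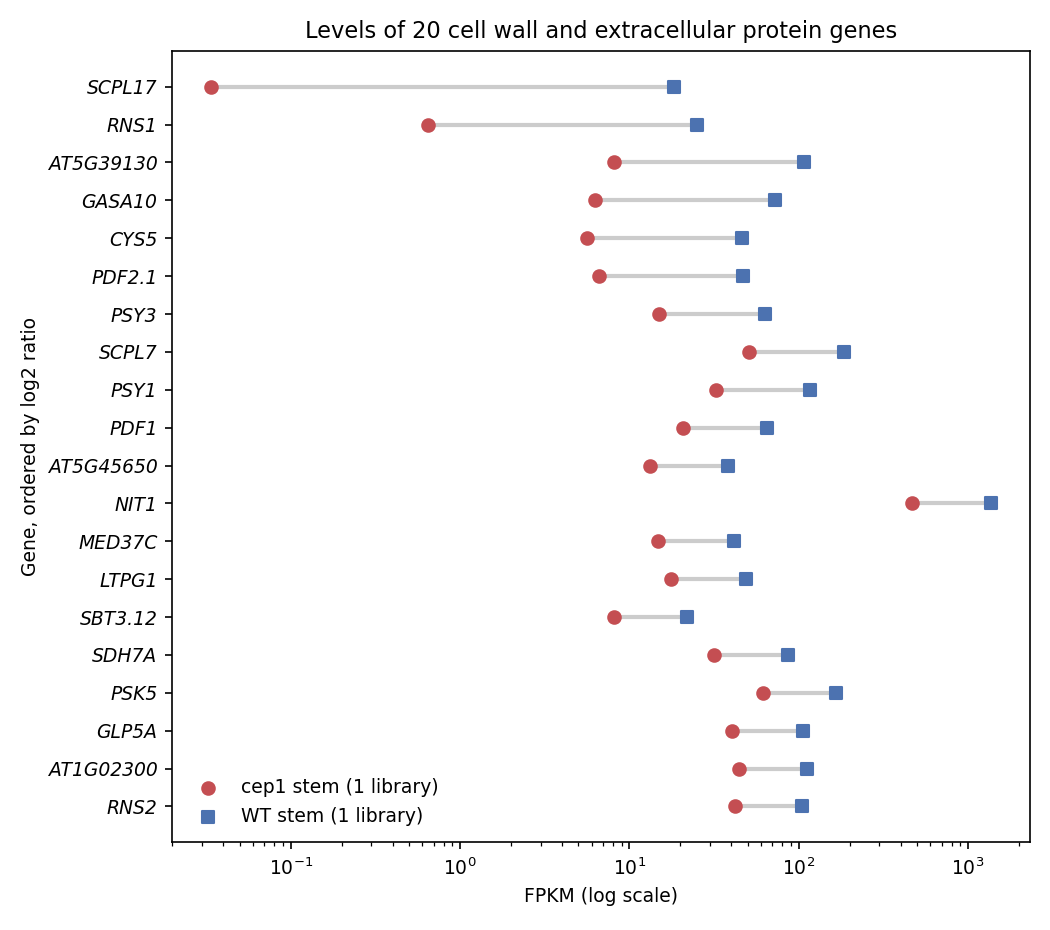
Levels of the 20 genes in FPKM on a log axis, with the *cep1* library as circles and the WT library as squares, 1 library each. Every circle lies left of its square, and the distance is widest for *SCPL17*, with 0.0338 FPKM in *cep1* and 18.3 FPKM in the WT.

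**Figure D2:**
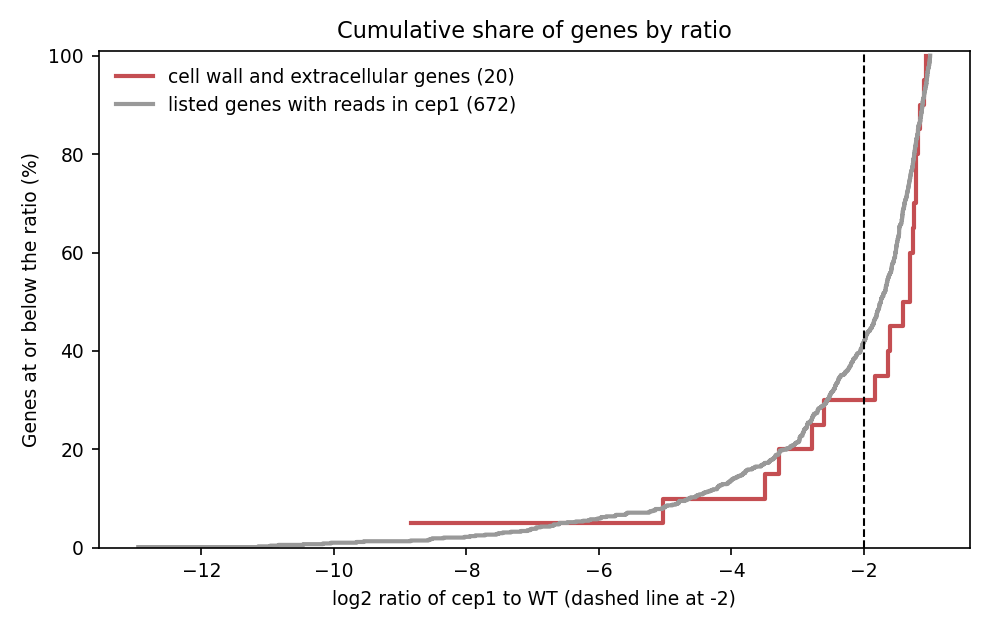
Cumulative percentage of genes at or below each log2 ratio of *cep1* to WT, for the 20 genes and for the 672 listed genes with reads in *cep1*. At -2, marked by the dashed line, the curve for the 20 genes stands at 30% and that for the listed genes at 42.0%.

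Genes of protease families formed the largest group, with 5 genes, and the term proteolysis was carried by 25% of the 20 genes, against 3.42% of the 672 listed genes with reads. The 672 had not passed the place terms or the exclusions by process and function, so these shares compare unlike sets. The log2 ratios of the protease family genes ran between -8.84 and -1.10. The serine carboxypeptidase-like genes *SCPL17* and *SCPL7* belong to a family in which some enzymes cut peptides and others, *SCPL17* among them, transfer acyl groups onto small molecules such as glucosinolates in seeds. Their coding sequences give the same residue at 64.2% of aligned codons. The serine site of the family is shown for both because these related genes differed most in their ratio, with the codons of the site in capitals, on RefSeq assembly TAIR10.1 at chr3:3893031-3893078 (minus strand) for *SCPL17* and chr3:3250754-3250801 (plus strand) for *SCPL7*.
SCPL17: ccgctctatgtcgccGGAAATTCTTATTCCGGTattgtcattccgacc
SCPL7: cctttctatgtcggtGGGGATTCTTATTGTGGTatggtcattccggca

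*SCPL17* had 1 read in *cep1* and 514 in the WT, equal to 0.0338 FPKM in *cep1* and 18.3 FPKM in the WT. A ratio built on 1 read is imprecise, and its log2 value of -8.84 had an interval of -14.15 to -6.36. *SCPL7* had 1751 reads in *cep1*, against 6085 in the WT, or 50.7 FPKM in *cep1* and 186 FPKM in the WT, with a log2 ratio of -1.63 (-1.71 to -1.56). The intervals of the pair did not overlap, and *SCPL7* was the second highest of the 20 genes in the WT by FPKM while *SCPL17* was the lowest.

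The subtilases are serine proteases of the secretory pathway that process or degrade extracellular proteins. *AT5G45650* had 741 reads in *cep1*, against 2051 in the WT (13.2 FPKM in *cep1* and 38.5 FPKM in the WT), a log2 ratio of -1.30 (-1.43 to -1.18). *SBT3.12* had 530 reads in *cep1*, against 1376 in the WT (8.06 FPKM in *cep1* and 22.0 FPKM in the WT), a log2 ratio of -1.21 (-1.36 to -1.07). Their intervals overlapped, and of the 20 genes these were the only ones annotated to the cell wall and not to the extracellular region.

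*AT1G02300* encodes a cathepsin B-like enzyme, which like CEP1 is a papain-type cysteine protease. It had 1204 reads in *cep1*, against 2886 in the WT (44.4 FPKM in *cep1* and 112 FPKM in the WT). Its log2 ratio of -1.10 had an interval of -1.20 to -0.9999, so that it reached the threshold of the table.

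*CYS5* was the protease inhibitor of the set. It encodes a cystatin, a small protein whose loop enters the active site of papain-type proteases. The codons of that loop are given in capitals, since the loop is the part that meets the protease, at chr5:19286722-19286766 (minus strand).
CYS5: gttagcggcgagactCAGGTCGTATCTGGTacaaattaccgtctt

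*CYS5* had 68 reads in *cep1*, against 526 in the WT (5.64 FPKM in *cep1* and 46.0 FPKM in the WT), with a log2 ratio of -2.79 (-3.17 to -2.42). This was lower than for 4 of the 5 genes of protease families, whose intervals all lay above that of *CYS5*. The exception was *SCPL17*, the acyltransferase.

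**Figure D3:**
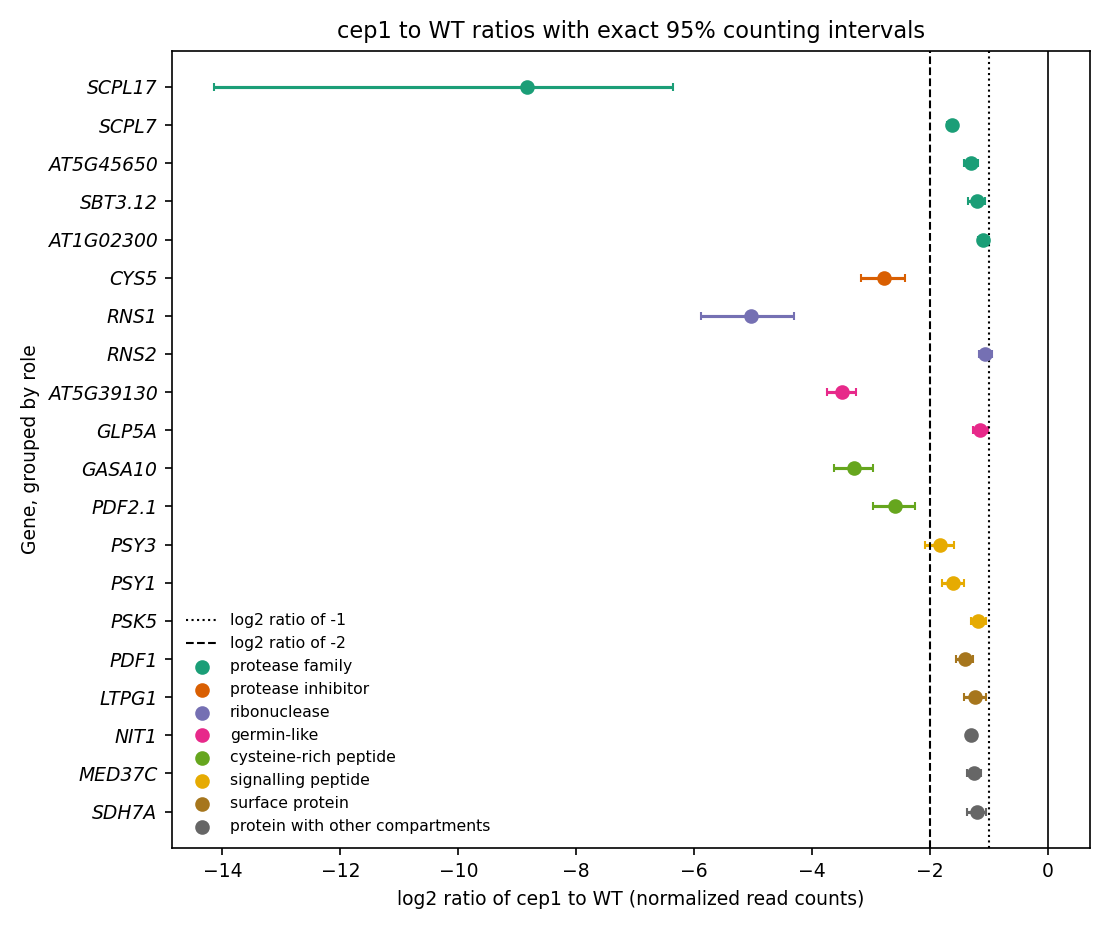
Log2 ratio of *cep1* to WT for each of the 20 genes, grouped by role, with exact 95% intervals for counting error as bars. Ratios used raw reads scaled by the factors of the authors' normalized read counts. Dotted and dashed lines mark -1 and -2. *SCPL17* and *RNS1* lie furthest left, while *AT1G02300* and *RNS2* have intervals that reach -1.

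The ribonucleases of the T2 family cut RNA and are known from phosphate starvation and senescence. *RNS1* is secreted, and *RNS2* is best known as a vacuolar enzyme of ribosomal RNA turnover. They encode the same residue at 36.2% of aligned codons and share both catalytic histidine sites, shown here in capitals to identify the family in genes with unlike ratios. The *RNS1* sites lie at chr2:873967-874011 and chr2:874243-874287 and those of *RNS2* at chr2:16591669-16591830 and chr2:16592090-16592507, all on the plus strand, with the introns of *RNS2* left out of the printed sequence.
RNS1 first site: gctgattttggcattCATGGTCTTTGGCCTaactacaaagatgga
RNS2 first site: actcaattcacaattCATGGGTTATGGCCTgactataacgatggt
RNS1 second site: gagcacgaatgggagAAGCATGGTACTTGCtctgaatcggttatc
RNS2 second site: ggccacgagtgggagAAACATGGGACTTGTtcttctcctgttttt

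*RNS1* had 15 reads in *cep1*, against 553 in the WT (0.650 FPKM in *cep1* and 25.2 FPKM in the WT), a log2 ratio of -5.04 (-5.89 to -4.31). *RNS2* had 954 reads in *cep1*, against 2241 in the WT (42.1 FPKM in *cep1* and 104 FPKM in the WT), a log2 ratio of -1.07 (-1.18 to -0.96). *RNS2* was thus the member closest to the threshold, with an interval that crosses it, while only *SCPL17* had a lower ratio than *RNS1*. *RNS1* is also one of the 6 senescence markers searched, of which 5 were listed, *SAG12* included, with 1384 reads in *cep1*, against 13308 in the WT in total. Most of these reads came from *SAG12*, with 759 in *cep1* and 9691 in the WT. The listed marker nearest the threshold was *SGR1*, with a log2 ratio of -1.41.

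Germin-like proteins are stable cupin-fold glycoproteins of the extracellular matrix, and some of them have superoxide dismutase activity. *AT5G39130*, named subfamily 1 member 16, and *GLP5A*, named subfamily 1 member 20, lie on chromosome 5, separated by 26069 bases and 5 annotated genes. Their coding sequences of 669 bases are identical at 97.8% of positions and differ at 15. The stretch of 90 bases with the most differences is shown, since it separates this pair best, with its 7 differing bases in capitals. It was not chosen to separate either gene from other near copies. It lies at chr5:15665728-15665817 for *AT5G39130* and chr5:15692861-15692950 for *GLP5A*, both on the minus strand.
AT5G39130: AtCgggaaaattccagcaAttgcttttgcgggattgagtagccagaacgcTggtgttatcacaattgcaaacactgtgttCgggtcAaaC
GLP5A: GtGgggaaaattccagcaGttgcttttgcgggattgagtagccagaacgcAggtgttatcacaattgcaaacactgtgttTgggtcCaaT

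*AT5G39130* had 149 reads in *cep1*, against 1883 in the WT (8.07 FPKM in *cep1* and 107 FPKM in the WT), with a log2 ratio of -3.50 (-3.75 to -3.25). *GLP5A* had 761 reads in *cep1*, against 1890 in the WT (40.5 FPKM in *cep1* and 106 FPKM in the WT), with a log2 ratio of -1.15 (-1.27 to -1.03). The genes thus stood at nearly the same level in the WT library and apart in *cep1*, and the intervals of their ratios did not overlap. Stretches of 50 bases of *AT5G39130* recur in another gene for 45.3% of its coding sequence, and those of *GLP5A* for 98.7%. The nearest gene to *GLP5A*, *AT5G39160*, is 99.9% identical to it and is not in the table. How the counting assigned reads that fit several of these genes was not stated, so the split between them is uncertain.

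The small cysteine-rich peptides of the set were *GASA10*, a gibberellin-regulated peptide, and *PDF2.1*, a plant defensin whose family binds the membranes of fungi. Their whole coding sequences are printed because the spacing of the cysteine codons, in capitals, is what defines these families. *PDF2.1* has 8 such codons and *GASA10* has 12, which is 10.4% and 13.5% of all codons. *PDF2.1* lies at chr2:538319-538842 and *GASA10* at chr5:24111443-24111808, both on the plus strand, and introns were left out.
PDF2.1: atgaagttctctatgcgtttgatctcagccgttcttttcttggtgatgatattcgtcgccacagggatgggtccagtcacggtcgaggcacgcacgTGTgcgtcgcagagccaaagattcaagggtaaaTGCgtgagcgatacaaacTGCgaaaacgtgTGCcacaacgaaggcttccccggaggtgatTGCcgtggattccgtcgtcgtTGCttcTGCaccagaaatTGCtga
GASA10: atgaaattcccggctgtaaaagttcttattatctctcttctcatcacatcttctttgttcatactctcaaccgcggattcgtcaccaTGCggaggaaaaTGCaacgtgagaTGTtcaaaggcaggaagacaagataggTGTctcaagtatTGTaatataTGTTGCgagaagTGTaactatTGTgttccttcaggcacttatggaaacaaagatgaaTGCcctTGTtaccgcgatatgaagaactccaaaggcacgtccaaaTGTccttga

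*GASA10* had 83 reads in *cep1*, against 908 in the WT (6.26 FPKM in *cep1* and 72.1 FPKM in the WT), a log2 ratio of -3.29 (-3.63 to -2.96). *PDF2.1* had 75 reads in *cep1*, against 510 in the WT (6.58 FPKM in *cep1* and 47.2 FPKM in the WT), a log2 ratio of -2.60 (-2.97 to -2.25). Both lay below -2 with their whole interval.

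The signalling peptides were encoded by *PSK5*, *PSY1* and *PSY3*. *PSK5* encodes a precursor of phytosulfokine, a tyrosine-sulfated pentapeptide that acts through receptor kinases in cell growth, and *PSY1* encodes a precursor of a sulfated and glycosylated peptide that promotes cell expansion. *PSY3* is a related precursor. The stretch that holds the active peptide is shown for each because it is the functional product of an otherwise short precursor. In *PSK5*, at chr5:26352011-26352055 on the plus strand, capitals mark the phytosulfokine codons. In *PSY1*, at chr5:23699912-23699965, and *PSY3*, at chr2:12797152-12797205, both on the minus strand, they mark the codons for the same residue in the 2 genes, which are 9 of 18.
PSK5: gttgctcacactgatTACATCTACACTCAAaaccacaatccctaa
PSY1: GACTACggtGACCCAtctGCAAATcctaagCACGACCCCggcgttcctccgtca
PSY3: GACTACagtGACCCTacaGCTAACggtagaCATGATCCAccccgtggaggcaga

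*PSY3* had 173 reads in *cep1*, against 691 in the WT (15.0 FPKM in *cep1* and 63.2 FPKM in the WT), with a log2 ratio of -1.83 (-2.08 to -1.59). *PSY1* had 315 reads in *cep1*, against 1078 in the WT (32.5 FPKM in *cep1* and 117 FPKM in the WT), with a log2 ratio of -1.61 (-1.80 to -1.43). *PSK5* had 725 reads in *cep1*, against 1846 in the WT (61.6 FPKM in *cep1* and 165 FPKM in the WT), with a log2 ratio of -1.18 (-1.31 to -1.06). The interval of *PSK5* lay above those of both *PSY* genes, whose own intervals overlapped. *PSK5* ranked second of the 20 genes in *cep1* by FPKM. *PSY1* overlaps *AT5G58640* on the opposite strand by 60 bases, and whether the counting used strand was not stated.

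The surface proteins were *PDF1*, protodermal factor 1, a proline-rich protein made in the outermost cell layer of the shoot, and *LTPG1*, a lipid-transfer protein held at the plasma membrane by a glycolipid anchor that takes part in the export of cuticular wax. *PDF1* had 570 reads in *cep1*, against 1702 in the WT (20.8 FPKM in *cep1* and 65.4 FPKM in the WT), a log2 ratio of -1.41 (-1.55 to -1.28). *LTPG1* had 306 reads in *cep1*, against 809 in the WT (17.6 FPKM in *cep1* and 49.1 FPKM in the WT), a log2 ratio of -1.24 (-1.43 to -1.05). Their intervals overlapped each other. *LTPG1* overlaps *ECT9* on the opposite strand by 23 bases, and *SCPL7* overlaps *AT3G10455* on the same strand by 17 bases, and neither of those neighbours was listed.

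*NIT1*, *MED37C* and *SDH7A* carry an extracellular or wall term beside terms for other compartments, and are known mainly from inside the cell. *NIT1* encodes a nitrilase that can form auxin from indole-3-acetonitrile, *MED37C* a heat shock protein of the HSP70 class, and *SDH7A* a subunit of mitochondrial succinate dehydrogenase. *NIT1* had 12860 reads in *cep1*, against 35472 in the WT (469 FPKM in *cep1* and 1362 FPKM in the WT), with a log2 ratio of -1.30 (-1.33 to -1.27), the narrowest interval of the 20. *MED37C* had 739 reads in *cep1*, against 1980 in the WT (14.7 FPKM in *cep1* and 41.4 FPKM in the WT), and *SDH7A* had 480 reads in *cep1*, against 1246 in the WT (31.5 FPKM in *cep1* and 86.0 FPKM in the WT). The log2 ratios of *MED37C* and *SDH7A*, -1.26 (-1.38 to -1.14) and -1.21 (-1.37 to -1.06), overlapped that of *NIT1*. *NIT1* shares 91.2% of its aligned coding bases with *NIT2*, and 9.58% of its stretches of 50 bases recur in another gene.

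The coding sequences of all 20 genes were compared with those of 633 listed genes with reads in *cep1*, as features that the choice of genes had not used directly. The 20 genes had a median of 226 codons, against 314 in the listed genes. At most 110 codons were found in 30% of the 20 genes and 7.90% of the listed genes, and at least 5% cysteine codons in 4 of the 20 genes and 3.79% of the listed genes. A window of 12 codons with at least 9 for hydrophobic residues occurred within the first 32 codons of 16 of the 20 genes, which is 80%, and of 18.8% of the listed genes. The 4 genes without it were *NIT1*, *MED37C* and *SDH7A*, with 6 such codons each, and *SBT3.12*, with 7. The annotation to the extracellular region can itself be derived from a predicted signal peptide, so this feature is not independent of the choice of genes.

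**Figure D4:**
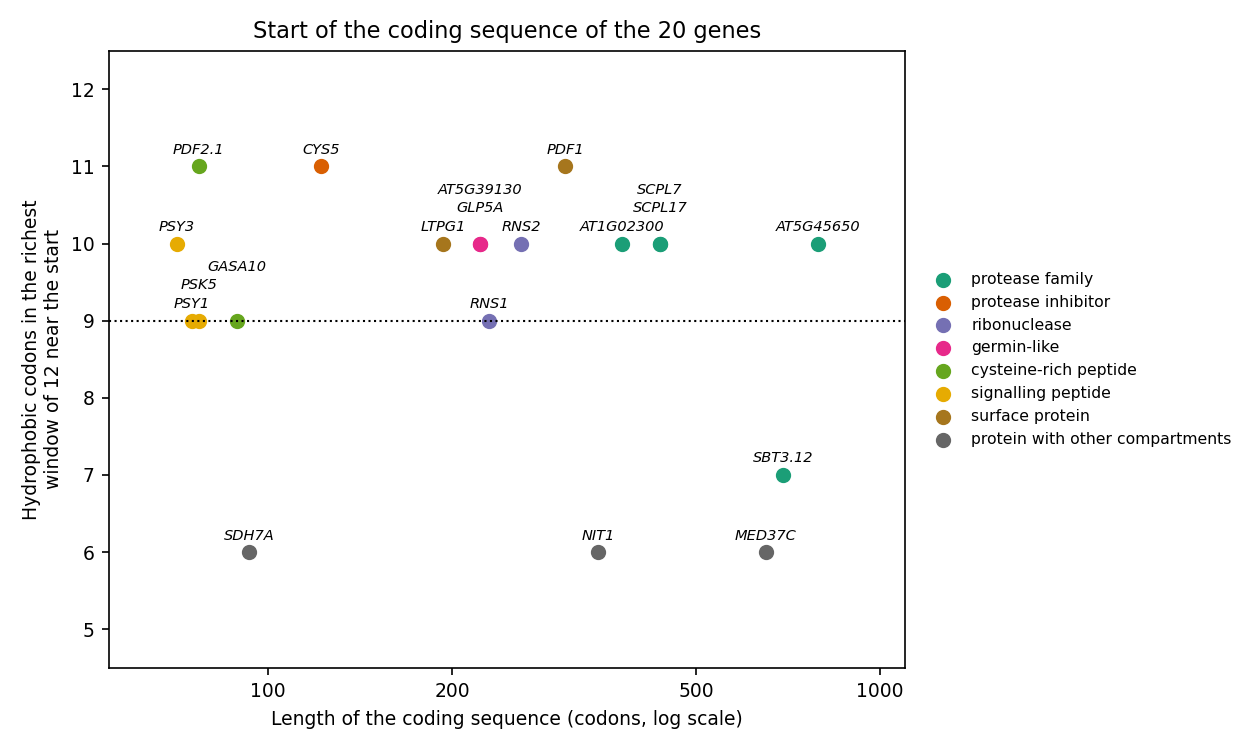
Coding length in codons (log axis) against the number of hydrophobic codons in the richest window of 12 within the first 32 codons, for the 20 genes coloured by role. The dotted line marks 9. *NIT1*, *MED37C*, *SDH7A* and *SBT3.12* lie below it and the other 16 genes lie on or above it.

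The genes just outside the choice had no read in *cep1*. These 5 were *EPR1*, a proline-rich extensin-like protein with 13365 reads in the WT, *ATTI7*, a defensin-like protein with 1842, *PAP85*, a cupin-family protein with 1048, *AT3G54940*, a papain-family protease with 543, and *DIR12*, a dirigent protein with 336. With 3 reads as the limit for a count of 0, they were 3977-fold, 548-fold, 312-fold, 162-fold and 99.98-fold lower in *cep1*. These values leave out counting error in the WT library and are thus not lower limits. The exact interval of the log2 ratio reached up to -11.66 for *EPR1* and -8.80 for *ATTI7*, a smaller difference for each. Just inside were *SCPL17* with 1 read and *RNS1* with 15.

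Other listed genes were searched by words for secreted and wall protein families in their names and descriptions. The words also matched genes of other kinds, such as *GPX7*, described as chloroplastic. Many lipid-transfer matches were of a superfamily that includes the seed storage 2S albumins. Of the 25 families searched, 20 had at least 1 listed gene, and these held 52 genes, of which 12 were among the 20. The other 40 genes included 26 with no wall or extracellular term and 9 with no read in *cep1*. The 31 with reads had a median log2 ratio of -2.78, against -1.75 over the 672 listed genes, and 18 of them lay at -2 or below, where 42.0% of the listed genes lay. No expansin, xyloglucan endotransglucosylase, polygalacturonase, pectate lyase or thaumatin gene was listed.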

How the data were processed

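RNA-seq of 1 *cep1* and 1 WT stem library was analysed. The submitters' processing notes name TopHat2 2.0.12, Bowtie2 2.2.3 and HTSeq 0.6.1, and the study's methods name a NEBNext Ultra kit and DEGseq; the genome build is not given in the sources used here. The authors deposited raw read counts and FPKM (counts per gene length and library total). The authors also deposited normalized read counts, a signal equal to the raw count divided by 20.3 (*cep1*) or 22.8 (WT), except as follows. Among the 20 genes, *SCPL17* (1 read) and *RNS1* (15 reads) had a deposited normalized count of 0 in *cep1*. The log2 ratios given here for *SCPL17* and *RNS1* thus rest on raw reads and the factors, not on the deposited normalized counts. The authors' log2 ratios, p-values and adjusted p-values were not used. The deposited table used here holds only 733 genes called lower in *cep1*; genes outside it were not analysed here.

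Log2 ratios of *cep1* to WT used the raw counts and the authors' factors, with exact 95% intervals. Library totals were medians of those implied by count, length and FPKM over genes with at least 1000 reads. The deposited FPKM of the 20 genes came within 1% of count over length and total for 16 genes and was up to 1.08 times larger for the others. Every gene of the set was named. The members, gene lists and family words were chosen with earlier results of these data known. edgeR could not be fitted with 1 library per genotype. Coding sequences, coordinates and gene overlaps came from RefSeq TAIR10.1 (all 20 genes matched). Residues were read by translating the coding sequences, and no separate protein sequences were used. Hydrophobic codons were those for alanine, phenylalanine, isoleucine, leucine, methionine, valine and tryptophan. Python 3.11.15, numpy 2.4.6, pandas 2.3.3, scipy 1.17.1, Biopython 1.88 and matplotlib 3.10.9 were used, with BLAST+ for the nearest genes. The interval calculation was run on simulated counts with read sampling as the only noise, which says nothing of variation between plants.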

Additional observations from a re-analysis of the deposited data

How the results depend on the processing

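No paired analysis was possible because each genotype has 1 library. Leaving out a replicate was likewise not possible. Scaling to library totals shifted every log2 ratio by -0.24, listed genes included. The median was then -1.60 over the 20 genes and -1.98 over the 672 listed genes with reads in *cep1*, 7 of the 20 and 49.6% of the 672 lay at -2 or below, and all intervals of both lay wholly below -1, against 18 of the 20 and 89.3% of the 672 with the authors' factors. The log2 of FPKM + 1 gave a median of -1.57 over the 20 genes and -1.88 over the 672. The median was -1.30 with at least 20 reads in both libraries, -1.28 for the genes with a cell wall term, -1.51 for those with an extracellular region term and -1.60 when the process and function exclusions were dropped, which gave 38 genes. With counts at the shallower depth of the normalized values, 7 intervals of the 20 genes lay wholly below -1, as follows from the smaller counts. The share of the 672 listed genes at that depth was not computed, so whether the drop is particular to the 20 genes was not tested. The share of reads was 4.80% in *cep1* and 3.59% in the WT when divided by the reads on listed genes alone, and 0.0437% and 0.147% of the libraries without *NIT1*. The direction of single genes could not be reversed by these scalings and pseudocounts, since the genes were chosen as lower and the shift ran downwards, so it is no sign of stability. The depth limits *SCPL17* and *RNS1* most, at 1 and 15 reads in *cep1*, where their deposited normalized counts were 0.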
